A study of Mus musculus with 36 samples.

Results

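The genes described here encode proteins that neutrophils and their precursors pack into granules. They are the 10 rows of the gene table whose symbol is one of a fixed list. The list holds 4 genes of the primary granules (Mpo, Elane, Prtn3 and Ctsg) and 6 genes expressed later in maturation (Ltf, Camp, Ngp, Lcn2, S100a8 and S100a9). The table held 56246 genes, of which 16123 were tested, and all 10 granule genes were among those tested. The study asked how bone responds to correction of the mutation in mice that model Hutchinson-Gilford progeria, a disorder of premature aging. RNA was sequenced from the tibia of 36 mice at 6 months of age, 1 library for each mouse, after the bone ends and the marrow had been taken out. There were 12 wild-type mice, whose labels give no injection. The other 24 mice carried the genotype LMNA G608G/G608G, written LMNA G/G here, which holds the progeria variant in both copies of a human LMNA transgene carried on a bacterial artificial chromosome. Of these, 12 had received saline and 12 an adenine base editor (ABE) directed at the variant, each by retro-orbital injection at postnatal day 14. The editor was delivered by a pair of AAV9 vectors. Each group held 6 females and 6 males.

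Neutrophils mature in the bone marrow in steps, and each step fills a different kind of granule. Promyelocytes make the primary (azurophilic) granules, whose serine proteases and myeloperoxidase kill and digest microbes. Myelocytes and later cells make the secondary (specific) granules with lactoferrin and cathelicidin, and the cytosolic S100A8 and S100A9 proteins, which form calprotectin, reach their highest abundance in mature cells. Transcripts of the primary granule proteins are therefore used as a sign of immature granulocytes, and transcripts of the later proteins as a sign of cells further along the same path. Transcription factors of the C/EBP family and PU.1 are known to drive these genes.

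Levels are given as scaled TPM. TPM (transcript abundance relative to a fixed total) counts the reads of a gene per unit of its length and sums to 1000000 in every library, and each library was then divided by a factor, the median ratio of its genes to those of the other libraries. Libraries held between 48064068 and 116206662 reads assigned to genes. The 10 granule genes together took 0.246 to 0.841% of the reads in wild-type libraries (median 0.490%), 0.254 to 1.07% in saline-treated libraries (median 0.702%) and 0.0700 to 1.18% in ABE-treated libraries (median 0.406%). The fewest reads of any of them in a library were 540, for Ctsg in 1 ABE-treated library, so counting error was small beside the differences between mice. The library of ABE replicate 1, a female, stood apart with a scaling factor of 0.216, against 0.608 to 1.57 in the other 35. A further 3 libraries had WT in their names although their labels gave the genotype LMNA G608G/G608G and an injection (saline replicate 9, ABE replicate 2 and ABE replicate 11). They were kept as labelled, and counts without them stand beside the results of the comparisons with the ABE-treated group. Transcripts of the human transgene were not analysed here. The labels give no injection for the wild-type mice, so genotype and injection cannot be told apart in comparisons with them. Osteocyte markers, which define the labelled tissue, were found in every group, but their summed level did not overlap between wild-type libraries (10.4 to 49.4 scaled TPM) and saline-treated (170.1 to 480) or ABE-treated libraries (174 to 346). What these levels have to do with the differences from wild-type was not tested. In bulk RNA from bone with its ends and marrow taken out, fewer cells of a type and less RNA per cell cannot be told apart. The labels do not give how much marrow was left in each tibia.

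The promoters of 4 of the genes are shown because the genes of a class moved together in the libraries, as described below. All 10 genes had an entry in the RefSeq table. Each promoter runs from 250 bases before to 50 bases after the RefSeq start on the GRCm38.p6 assembly, 5′ to 3′ on the strand of the gene. Elane (chr10:79886062-79886361, plus strand) and Prtn3 (chr10:79879417-79879716, plus strand) are neighbours of the primary class. Ltf (chr9:111019042-111019341, plus strand) and S100a8 (chr3:90668821-90669120, plus strand) stand for the later class, as the later genes with the smallest and the largest difference between saline-treated and wild-type bone. Capitals mark motifs searched for on both strands.
Elane: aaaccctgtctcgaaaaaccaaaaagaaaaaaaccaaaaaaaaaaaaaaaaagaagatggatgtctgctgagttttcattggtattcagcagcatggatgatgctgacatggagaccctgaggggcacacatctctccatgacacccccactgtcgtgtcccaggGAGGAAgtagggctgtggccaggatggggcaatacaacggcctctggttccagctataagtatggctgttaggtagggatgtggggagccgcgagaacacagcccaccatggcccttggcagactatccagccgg
Prtn3: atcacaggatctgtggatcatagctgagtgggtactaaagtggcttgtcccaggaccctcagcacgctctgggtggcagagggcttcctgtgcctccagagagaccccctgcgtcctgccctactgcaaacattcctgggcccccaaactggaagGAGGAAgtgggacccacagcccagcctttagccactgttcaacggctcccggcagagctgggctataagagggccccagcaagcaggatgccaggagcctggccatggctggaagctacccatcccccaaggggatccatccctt
Ltf: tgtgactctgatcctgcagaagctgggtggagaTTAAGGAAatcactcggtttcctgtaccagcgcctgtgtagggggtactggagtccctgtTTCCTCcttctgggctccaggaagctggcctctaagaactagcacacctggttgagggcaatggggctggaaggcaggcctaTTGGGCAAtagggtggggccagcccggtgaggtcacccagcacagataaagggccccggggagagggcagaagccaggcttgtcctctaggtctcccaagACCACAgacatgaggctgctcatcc
S100a8: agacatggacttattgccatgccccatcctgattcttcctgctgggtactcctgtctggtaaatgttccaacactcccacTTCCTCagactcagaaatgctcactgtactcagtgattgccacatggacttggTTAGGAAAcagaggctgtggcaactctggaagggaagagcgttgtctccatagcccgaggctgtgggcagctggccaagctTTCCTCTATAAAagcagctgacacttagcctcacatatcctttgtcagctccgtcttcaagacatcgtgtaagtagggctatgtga
The letters searched for were GAGGAA for PU.1, TTNNGNAA for C/EBP, TGTGGT for RUNX and TATAAA for a TATA element. A PU.1 motif lay in all 4 primary promoters and in 3 of the 6 later promoters (Ltf, Lcn2 and S100a8), against 28.28% of 32851 RefSeq promoters of the same length. A C/EBP motif lay in none of the 4 primary promoters and in 5 of the 6 later ones (all but Camp), against 40.68% of all promoters. RUNX motifs lay in Ctsg, Ltf and S100a9 (16.76% of all promoters), and the letters TATAAA in Ctsg, S100a8 and S100a9 (13.62% of all). The TATAAA match lay 30 bases before the start in S100a8, 237 bases before it and on the opposite strand in Ctsg, and at the start itself in S100a9. In S100a8 a PU.1 motif on the opposite strand runs straight into the TATAAA match. These matches describe letters only, and the absence of one says that the letters are not in this window.

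The serine proteases and myeloperoxidase of the primary granules overlapped in wild-type and saline-treated bone and were lower on average in ABE-treated bone. Mpo encodes myeloperoxidase, the enzyme that makes hypochlorous acid from hydrogen peroxide and chloride. Its scaled TPM ran from 29.1 to 70.1 (median 44.3) in wild-type libraries, from 26.2 to 86.6 (median 46.7) with saline and from 6.32 to 85.3 (median 29.9) with ABE. Elane, the gene of neutrophil elastase, ran from 30.6 to 77.8 (median 48.3), from 32.5 to 99.5 (median 57.7) and from 6.26 to 108 (median 36.4) in the same order. Both genes had 2 ABE-treated libraries above every wild-type library, and 6 (Mpo) or 4 (Elane) below every wild-type library, so the ABE-treated group spread to both sides.

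Prtn3 encodes proteinase 3, a close relative of elastase. It ran from 14.3 to 30.8 scaled TPM (median 22.8) in wild-type libraries, from 12.1 to 39.4 (median 23.8) with saline and from 2.72 to 38.5 (median 15.2) with ABE. Ctsg, the gene of cathepsin G, ran from 12.1 to 27.0 (median 18.7), from 11.1 to 35.8 (median 20.4) and from 2.82 to 31.3 (median 12.9) in that order. Below every wild-type library lay 5 ABE-treated libraries for Prtn3 and 4 for Ctsg, and 1 ABE-treated library lay above for each. The 2 lowest libraries of the whole series were the same for all 4 genes, ABE replicate 12 (a male) and ABE replicate 1 (the female with the low scaling factor).

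Among the later genes, the iron-binding and antimicrobial proteins of the specific granules had overlapping levels in all groups. Ltf encodes lactoferrin, which binds iron. It ran from 55.4 to 157 scaled TPM (median 109.5) in wild-type libraries, from 38.0 to 158 (median 107.6) with saline and from 25.9 to 183 (median 70.5) with ABE. Camp, the gene of the cathelicidin antimicrobial peptide, ran from 72.8 to 232 (median 139.6), from 93.2 to 280.1 (median 199.8) and from 32.6 to 329 (median 138) in that order. Ngp encodes neutrophilic granule protein, a cystatin-like protein, and ran from 184 to 556 (median 354), from 194 to 673 (median 449) and from 88.5 to 724 (median 299). Above every wild-type library lay 1 saline-treated library for Ltf and 4 each for Camp and Ngp, while ABE-treated libraries had 1 above and 1 below for each of the 3 genes.

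The other 3 later genes stood higher in most saline-treated libraries than in any wild-type library. Lcn2 encodes lipocalin 2, which captures bacterial siderophores. It ran from 15.7 to 49.9 scaled TPM (median 31.6) in wild-type libraries, from 24.4 to 80.7 (median 55.9) with saline and from 8.97 to 84.6 (median 34.6) with ABE. S100a8, a calcium-binding subunit of calprotectin, ran from 94.1 to 336 (median 167), from 179.7 to 636 (median 438) and from 46.1 to 731 (median 232) in that order. S100a9, the partner subunit, ran from 279.6 to 886 (median 542), from 434 to 1556 (median 1080.2) and from 124 to 1611 (median 643). Of the 12 saline-treated libraries, 9 for Lcn2 and 8 each for S100a8 and S100a9 lay above the highest wild-type library, against 2, 3 and 2 of the 12 ABE-treated libraries.

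By the wild-type medians, S100a9 was the most abundant granule transcript per length, followed by Ngp, S100a8, Camp, Ltf, Elane, Mpo, Lcn2, Prtn3 and Ctsg. Neighbours in that order overlapped in their ranges in every step. The spread among mice was largest under ABE. The coefficient of variation (SD over mean, n = 12) of the 10 genes lay between 23.8 and 43.0% in wild-type libraries, between 28.6 and 37.7% with saline and between 48.1 and 70.2% with ABE.

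**Figure D1:**
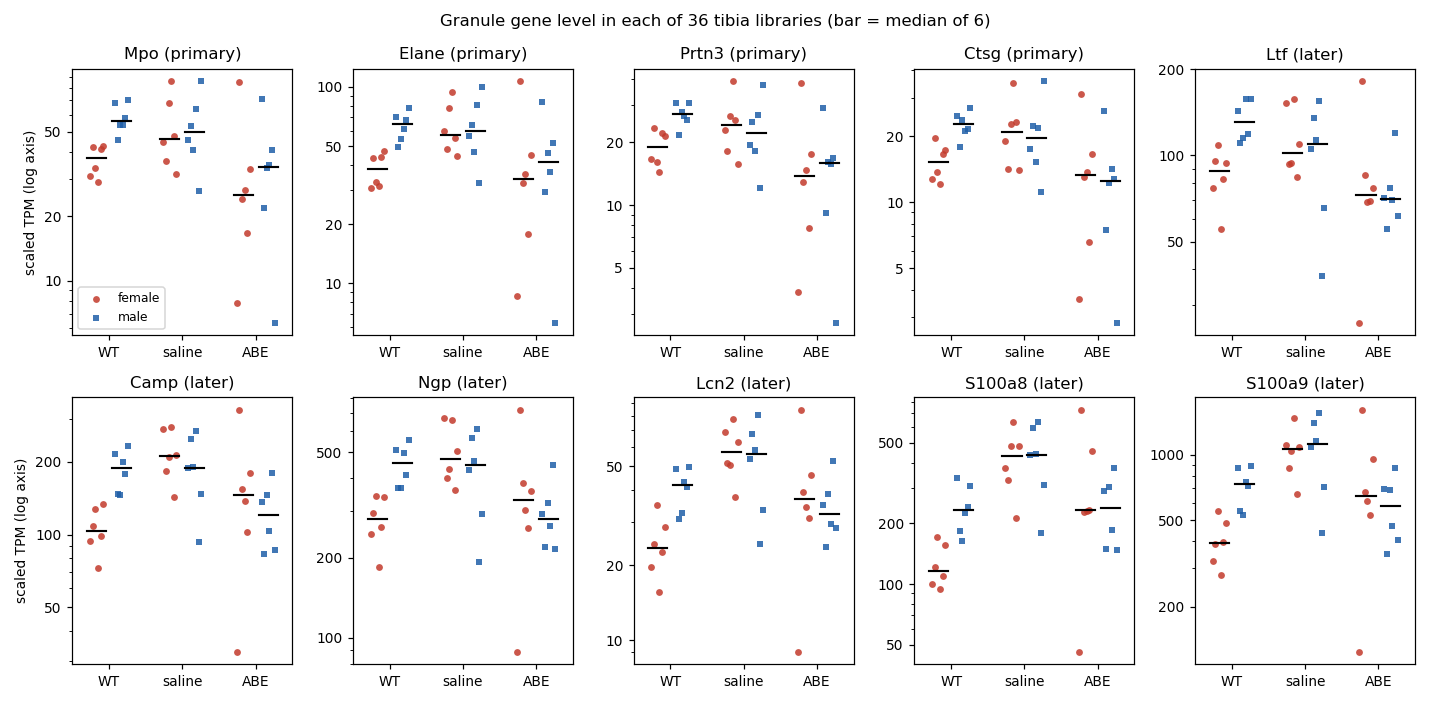
Level of each granule gene in scaled TPM (log axis) for every library, with circles for females, squares for males and a bar at the median of each set of 6. In the ABE column of Mpo, 1 female library stands at 85.3 and the lowest library at 6.32, while the S100a9 levels of most saline-treated libraries lie above the highest wild-type library at 886.

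The first comparison asked how saline-treated LMNA G/G bone differed from wild-type bone. S100a8, S100a9 and Lcn2 rose, and no granule gene fell. S100a8 was 2.34-fold higher (log2 fold change 1.23 ± 0.30 SE, adjusted p = 0.00094). S100a9 was 1.88-fold higher (0.91 ± 0.27, adjusted p = 0.0061), and Lcn2 was 1.70-fold higher (0.76 ± 0.24, adjusted p = 0.0092). Here and below, fold changes are differences of log2(scaled TPM + 0.5) from limma fitted to all 36 libraries with a term for sex, and adjusted p is by Benjamini-Hochberg over the 16123 genes. A gene was called at an adjusted p under 0.05. The 3 called genes of 10 stand against 25.7% of all tested genes called higher and 27.0% called lower in this comparison, so their share was near the background.

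Camp (log2 fold change 0.49 ± 0.25 SE, adjusted p = 0.094) and Ngp (0.34 ± 0.24, adjusted p = 0.22) did not pass the test. Ltf stood at -0.05 ± 0.23 (adjusted p = 0.87). The 4 primary granule genes lay between 0.01 and 0.31, with adjusted p from 0.42 to 0.97. The median log2 fold change was 0.11 over the primary genes and 0.63 over the later genes, beside 0.001 over all genes tested. With no rescaling of the deposited TPM only S100a8 remained called (1.05, adjusted p = 0.036), while quantile normalization and array weights each called 5, adding Camp and Ngp. Of 18 alternatives that kept every library or left out several, S100a8 was called in 18, and Lcn2 and S100a9 in 16 each. The fit without the libraries that have WT in their names is among them. Without ABE replicate 1 or saline replicate 11, Camp was called as well, at adjusted p of 0.047 and 0.04. ABE replicate 1 enters this comparison only through the spread and the sex term that all groups share in the fit.

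**Figure D2:**
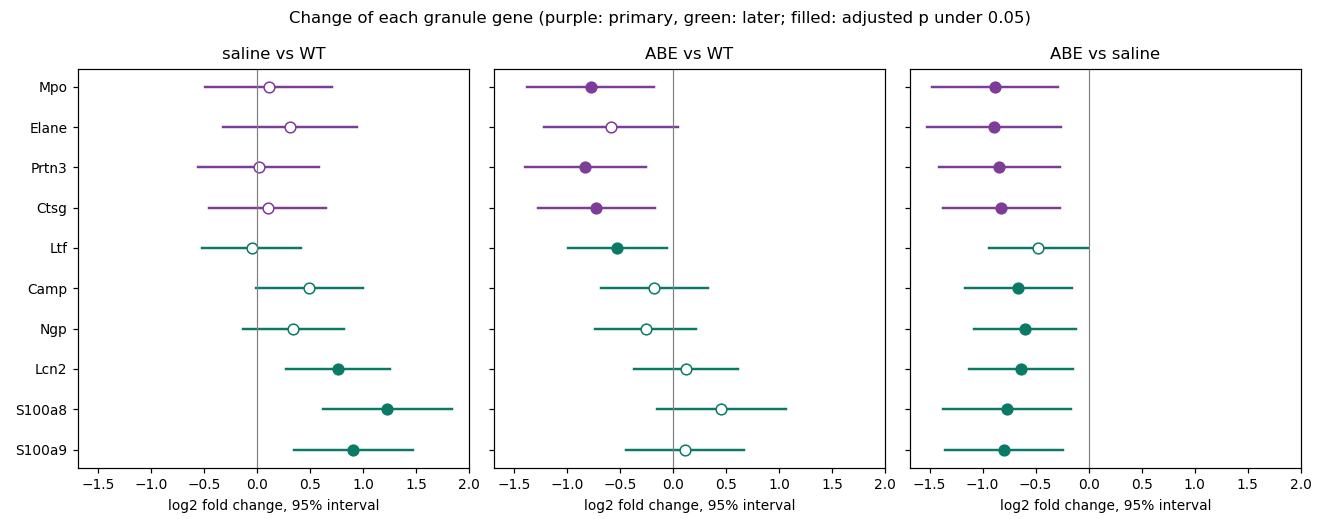
Log2 fold change of each granule gene in the 3 comparisons, with bars for the 95% interval, purple for primary and green for later genes, and filled points for an adjusted p under 0.05. The filled points are S100a8, S100a9 and Lcn2 in saline against WT, Mpo, Prtn3, Ctsg and Ltf in ABE against WT, and every gene but Ltf in ABE against saline.

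Within females, 5 of the 6 later genes differed in scaled TPM between saline-treated and wild-type bone with no overlap. In wild-type females S100a8 ran from 94.1 to 170.4 scaled TPM (median 116), and in saline-treated females from 213 to 635 (median 429). S100a9 ran from 279.6 to 553 (median 392) against 661 to 1470.0 (median 1061). Lcn2 ran from 15.7 to 34.8 (median 23.6) against 37.5 to 77.3 (median 57.2). Every saline-treated female thus stood above every wild-type female for these genes. The same held for Camp, at 72.8 to 134 (median 104) against 143 to 280.1 (median 211), and for Ngp, at 184 to 343 (median 279) against 361 to 673 (median 469.9).

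These 5 genes rose in females by log2 fold changes of 1.69 ± 0.41 SE for S100a8 (3.23-fold, adjusted p = 0.0023), 1.35 ± 0.38 for S100a9 (adjusted p = 0.0069), 1.25 ± 0.33 for Lcn2 (adjusted p = 0.0047), 1.02 ± 0.33 for Camp (adjusted p = 0.02) and 0.85 ± 0.32 for Ngp (adjusted p = 0.042). The calls depended on the scaling. With the deposited TPM 0 of the 5 were called (adjusted p from 0.074 for S100a8 to 0.42 for Ngp), and Camp, Ngp and Lcn2 overlapped between the groups, while S100a8 and S100a9 did not. With TPM rescaled over genes longer than 500 bp S100a8, S100a9 and Lcn2 were called. The call of Ngp was lost without any 1 of 8 libraries (WT replicates 3, 4, 6 and 9, saline replicates 1, 3, 4 and 6), with adjusted p up to 0.098. Over all tested genes, 11.5% were called higher in females and 6.26% were higher with no overlap. In males limma called 0 granule genes, 0 passed an unadjusted p of 0.05, and limma-voom on recovered reads called 0, against 26.2% of all genes called higher. The values in males ran from -0.52 for Ltf to 0.76 for S100a8. Other fits called up to 3 higher in males, with 1 under quantile normalization, the compared groups only or without ABE replicate 1, 2 under array weights or the B cell and erythroid covariates, and 3 under the skeletal muscle covariate. Skeletal muscle genes also differed with sex in this comparison, with 8 of 8 called higher in males (median log2 fold change 2.27) and 0 of 8 in females (0.22), and their part in the granule values of each sex was not tested.

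The change was larger in females than in males for all 10 genes, by 0.62 to 1.06 on the log2 scale. That difference itself was called for 0 of 10 by limma (adjusted p from 0.18 to 0.50) and for 0 by limma-voom. It had an unadjusted p under 0.05 for 4 (Ltf, Camp, Ngp and Lcn2), and 0.167% of all genes were called in that direction. So a difference between the sexes was not shown for these genes. Array weights called 2 of the 10 granule genes and 3299 of all 16123 genes.

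Females and males were also compared within the wild-type group, a contrast added after the data had been seen, and no granule gene was called. Mpo ran from 29.1 to 42.6 scaled TPM (median 37.6) in wild-type females and from 45.9 to 70.1 (median 55.9) in wild-type males. Ltf ran from 55.4 to 109 (median 88.3) against 110.2 to 157 (median 131). Neither gene overlapped between the sexes, and the same was true of Elane, Camp and Ngp. All 10 genes were lower in females, by log2 values from -0.94 to -0.52. Their adjusted p-values from limma ran from 0.27 to 0.59, so 0 were called, with 6 at an unadjusted p under 0.05. Over all genes 0.0868% were called lower in wild-type females and 1.28% were lower with no overlap. Between the sexes of the saline-treated and ABE-treated groups the values ran from -0.16 to 0.31, 0 were called, 0 had an unadjusted p under 0.05, and no gene was free of overlap.

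**Figure D3:**
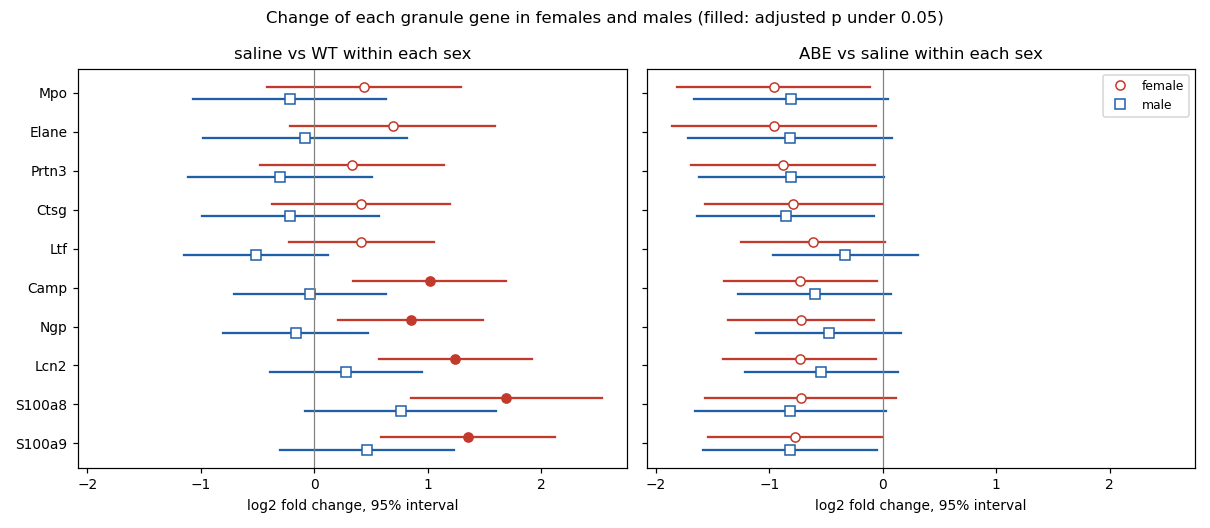
Log2 fold change of each granule gene within females (circles) and males (squares), for saline against WT and for ABE against saline, with bars for the 95% interval and filled points for an adjusted p under 0.05. In saline against WT, only Camp, Ngp, Lcn2, S100a8 and S100a9 in females are filled, and in ABE against saline every point lies below 0 and none is filled.

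The second comparison asked how ABE-treated LMNA G/G bone differed from saline-treated bone of the same genotype. Of the 10 genes 9 fell and Ltf did not pass the test. Among the primary genes, Mpo (log2 fold change -0.89 ± 0.29 SE, 1.85-fold lower, adjusted p = 0.014) and Elane (-0.89 ± 0.31, 1.85-fold lower, adjusted p = 0.019) fell furthest. Prtn3 fell by 0.84 ± 0.28 (adjusted p = 0.014) and Ctsg by 0.82 ± 0.27 (adjusted p = 0.013) on the log2 scale.

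Among the later genes, S100a9 fell by 0.80 ± 0.27 (1.74-fold lower, adjusted p = 0.017) and S100a8 by 0.77 ± 0.30 (1.71-fold lower, adjusted p = 0.033) on the log2 scale. Camp fell by 0.67 ± 0.25 (adjusted p = 0.027), Lcn2 by 0.64 ± 0.24 (adjusted p = 0.03) and Ngp by 0.60 ± 0.24 (adjusted p = 0.034). Ltf stood at -0.47 ± 0.23 (1.39-fold lower, adjusted p = 0.086). The median was -0.86 over the primary genes and -0.65 over the later genes, beside -0.002 over all genes. The 9 called of 10 stand against 23.7% of all tested genes called lower and 24.8% called higher. The libraries of the 2 groups overlapped for every one of the 10 genes. Over all genes, 0.0186% were lower under ABE with no overlap.

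The fall was alike in both sexes in direction and was called in neither. In females the log2 values ran from -0.96 (Mpo) to -0.62 (Ltf). Limma called 0 of 10 in females, although 8 were at an unadjusted p under 0.05 and 0 by limma-voom, against 18.9% of all genes called lower. In males they ran from -0.85 (Ctsg) to -0.33 (Ltf), with 0 called by limma, 2 at an unadjusted p under 0.05 (Ctsg and S100a9) and 0 by limma-voom, against 7.54% of all genes. The difference between the sexes ran from -0.29 to 0.09 and was called for 0 of 10 by limma, with 0 at an unadjusted p under 0.05 and 0 by limma-voom. Without the 3 libraries that have WT in their names, all 10 genes were called in the whole comparison and all 10 within females. All 10 were also called within females with the deposited TPM or without ABE replicate 2, and 3 without ABE replicate 12, while array weights called 4 in each sex. In males 1 was called without saline replicate 11, ABE replicate 1 or ABE replicate 7. The shares of all genes given here and for the other comparisons within a sex are those of the main fit. Counts from other fits therefore have no such share beside them. Skeletal muscle genes were called higher in 8 of 8 in females and 0 of 8 in males here (medians 1.71 and 0.89), and their part was not tested.

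With the compared groups only, 5 genes were called. The count also depended on single libraries. The 4 primary genes and S100a9 stayed called whichever library was left out. They were the only 5 called without ABE replicate 1, ABE replicate 8 or saline replicate 4, while without ABE replicate 2 or saline replicate 11 all 10 were called. S100a8 also lost its call without saline replicate 3, 6, 8 or 10 or ABE replicate 10 or 12 (adjusted p up to 0.077 over all libraries left out). Ngp lost its call as well without saline replicate 1, 6, 8 or 10 or ABE replicate 12 (up to 0.081), and Lcn2 without saline replicate 1 or 10 (up to 0.07).

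The third comparison set ABE-treated LMNA G/G bone against wild-type bone. Prtn3, Mpo, Ctsg and Ltf fell and no granule gene rose. Prtn3 fell by 0.83 ± 0.28 SE (1.77-fold lower, adjusted p = 0.0092), Mpo by 0.78 ± 0.29 (1.71-fold lower, adjusted p = 0.019) and Ctsg by 0.72 ± 0.27 (1.65-fold lower, adjusted p = 0.018) on the log2 scale. Ltf fell by 0.52 ± 0.23 (1.44-fold lower, adjusted p = 0.042), and Elane stood at -0.58 ± 0.31 (adjusted p = 0.093). The call of Ltf was lost without any 1 of 15 libraries (WT replicates 1, 2, 5, 7, 8, 10 and 11, ABE replicates 1, 4, 5, 7, 8, 9, 10 and 12), with adjusted p from 0.05 to 0.1. Elane was called without ABE replicate 2 (adjusted p = 0.02) or ABE replicate 7 (0.044), and S100a8 was called higher without ABE replicate 1 (0.024). The 4 called genes stand against 35.8% of all tested genes called lower and 34.7% called higher, close to the background share. These calls did not hold with the B cell and erythroid covariates described below, which gave Mpo 0.11, Prtn3 0.04, Ctsg 0.14 and Ltf 0.27, none of them called. With the skeletal muscle covariate Camp (0.76, adjusted p = 0.022) and Ngp (0.68, adjusted p = 0.022) were called higher.

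The other 5 later genes were on either side of 0. S100a8 stood at 0.46 ± 0.30 (adjusted p = 0.17), S100a9 at 0.11 ± 0.27 (adjusted p = 0.73) and Lcn2 at 0.12 ± 0.24 (adjusted p = 0.66). Camp stood at -0.17 ± 0.25 (adjusted p = 0.54) and Ngp at -0.26 ± 0.24 (adjusted p = 0.33). The 95% interval of the difference ran from -0.45 to 0.67 for S100a9 and from -0.37 to 0.62 for Lcn2. The median was -0.75 over the primary genes and -0.03 over the later genes, beside -0.02 over all genes. This comparison shares its libraries with both others, so the 3 are not independent of one another.

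Within females 1 gene was called, S100a8, which rose by 0.97 ± 0.41 SE on the log2 scale (adjusted p = 0.044), against 29.6% of all genes called higher. This call was weak. It was lost with no filter, with TPM rescaled over genes longer than 500 bp, with the compared groups only, without the 3 libraries that have WT in their names, and without any 1 of WT replicates 3, 4, 6 and 9 or ABE replicates 2 to 6. With the deposited TPM 0 granule genes were called higher and 4 lower in females, while both covariate fits called 5 higher, array weights 3 higher, and leaving out ABE replicate 1 gave 4 higher. Within males Prtn3 (-1.11 ± 0.40 SE, adjusted p = 0.016), Ctsg (-1.07 ± 0.38, adjusted p = 0.016), Mpo (-1.02 ± 0.42, adjusted p = 0.033) and Ltf (-0.85 ± 0.31, adjusted p = 0.019) fell, against 32.9% of all genes called lower. The difference between the sexes ran from 0.50 to 1.02, higher in females for all 10 genes. It was called for 0 by limma, with 0 at an unadjusted p under 0.05 and 0 by limma-voom, and for 3 genes without ABE replicate 1. Without the 3 libraries with WT in their names 5 genes were called in the whole comparison and 7 in males. In males 1 gene was called lower without ABE replicate 12, 7 without ABE replicate 1, 2 with quantile normalization, and 0 with either covariate fit.

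The balance between the classes was also taken within each library, since a ratio of genes from 1 library cannot be changed by its scaling. The later genes, as a geometric mean, stood 3.97 to 7.09 times the primary genes in wild-type libraries (median 5.06). The ratio ran from 2.84 to 11.5 in saline-treated libraries (median 8.15) and from 3.58 to 26.7 in ABE-treated libraries (median 7.44). It lay above every wild-type library in 7 of 12 saline-treated and 9 of 12 ABE-treated libraries, and below in 1 of each. The highest value belonged to ABE replicate 12, whose primary genes were the lowest of the series. The lowest belonged to saline replicate 12, a male with the highest primary mean of all, 58.4 scaled TPM.

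The ratio of S100a8 to Mpo ran from 2.64 to 5.03 (median 3.84) in wild-type libraries, from 3.58 to 15.3 (median 8.71) with saline and from 4.09 to 23.3 (median 8.84) with ABE. It was above every wild-type library in 10 saline-treated and 11 ABE-treated libraries of 12. The medians of the saline-treated and ABE-treated groups lay close together for this ratio, while the levels of both genes were lower under ABE.

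**Figure D4:**
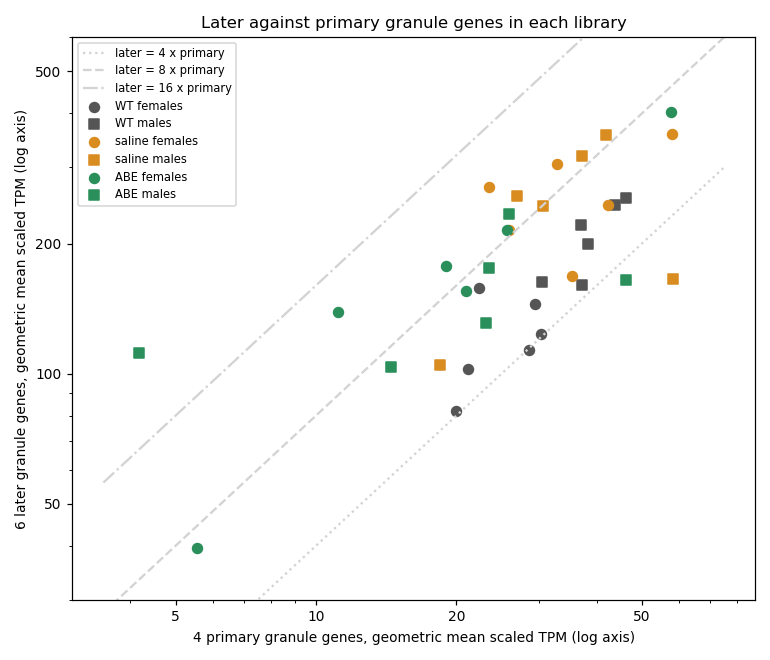
Geometric mean level of the 6 later genes against that of the 4 primary genes in each of 36 libraries (scaled TPM, log axes), with lines of equal ratio. Wild-type libraries lie between the lines for 4 and 8 times or close to the first, at ratios from 3.97 to 7.09, and 1 ABE-treated male lies far to the left at a ratio of 26.7.

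Of the 45 pairs of granule genes, 6 had within-library ratios that did not overlap between saline-treated and wild-type bone, all 6 between later genes. That is 13.3% of the pairs, against 7.71% of all pairs of tested genes above 0 in every library, and these ratios were looked at after the data had been seen, with no test. Later genes varied closely together (r from 0.881 to 0.986, below). The pairs over all genes were not chosen for that, so the 2 shares are not like for like. Ltf was lower relative to the others in 5 of the 6, so those 5 are not independent. Its ratio to Camp ran from 0.666 to 0.880 in wild-type and from 0.407 to 0.594 in saline-treated libraries. Its ratio to Ngp ran from 0.277 to 0.323 against 0.196 to 0.253, and its ratio to Lcn2 from 2.89 to 3.91 against 1.56 to 2.24. Lactoferrin transcripts were thus a smaller part of the later set in every saline-treated library than in any wild-type library. The ratio of Ltf to S100a8 ran from 0.426 to 0.783 against 0.194 to 0.405, and to S100a9 from 0.165 to 0.247 against 0.0874 to 0.138. The sixth pair was Ngp to Lcn2, at 9.85 to 12.5 against 7.56 to 9.76. Under ABE 0 pairs were free of overlap with wild-type (background 9.62%) and 0 with saline (background 0.0528%), though the Ltf to Ngp ratio of 10 ABE-treated libraries lay below every wild-type library.

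Genes of a class moved together from mouse to mouse. After the mean of each group and sex was taken out, Pearson's r over the 36 libraries was 0.965 to 0.991 for the 6 pairs of primary genes. It was 0.881 to 0.986 for the 15 pairs of later genes and 0.573 to 0.747 (median 0.67) for the 24 pairs across the classes. The mean log2 level of a class also went with the log2 scaling factor, at r = 0.474 for the primary and 0.515 for the later genes. Spearman's rho was lower there, at 0.293 and 0.15. All values share the libraries and their scaling, and are given as a description.

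The genes most like the primary class over all 36 libraries, by Pearson's r with its mean log2 level, were Ms4a3 (0.975), a membrane protein of granulocyte and monocyte progenitors, Nkg7 (0.974), Cst7 (0.967), Plac8 (0.955) and Ly6c2 (0.931). For the later class they were Wfdc21 (0.99), Pglyrp1 (0.979), which encodes a peptidoglycan recognition protein of the specific granules, Arhgdib (0.973), Mrgpra2b (0.972) and Ifitm6 (0.969). Spearman's rho ran from 0.883 to 0.964 for the first 5 and from 0.953 to 0.985 for the second 5. Without the 2 libraries farthest from the median r ran from 0.874 to 0.965 for the primary class and from 0.954 to 0.984 for the later class.

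The granule genes lie in several clusters of the genome (GRCm38, GENCODE vM21 annotation). Prtn3 (chr10:79874476-79883174) and Elane (chr10:79886247-79888215) are 3073 bp apart on the plus strand. S100a8 (chr3:90668978-90670035) and S100a9 (chr3:90692632-90695721) are 22597 bp apart on opposite strands. Ltf (chr9:111019271-111042767), Camp (chr9:109847379-109849617) and Ngp (chr9:110419747-110423012) lie on chromosome 9. Mpo (chr11:87793581-87804413), Ctsg (chr14:56099881-56102574) and Lcn2 (chr2:32384633-32388252) lie apart from the rest. Within 100 kb of the granule genes 42 other tested genes were found, of which 13 were called lower and 9 higher under ABE against saline, beside 23.7% and 24.8% of all tested genes. Among them were Epx, the eosinophil peroxidase gene, 59587 bp from Mpo, and Mcpt8, a basophil protease gene, 14608 bp from Ctsg.

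Other genes linked to the granules were taken from lists. Cebpe, Csf3r, Cxcr2, Fpr1, Fpr2, Slpi and Serpinb1a each stood in another of these lists as well, so the counts of the lists are not independent. Their counts are read beside the shares of all tested genes, which were 25.7% called higher and 27.0% lower in saline against wild-type, and 24.8% higher and 23.7% lower in ABE against saline. Below, a change under saline stands for saline-treated LMNA G/G bone against wild-type bone, which also differ in genotype. Of 9 further primary granule genes tested, 2 were called higher and 0 lower in saline against wild-type, and 0 higher and 8 lower in ABE against saline. Cd63, a granule membrane protein, rose in saline-treated bone (log2 fold change 0.63, adjusted p = 3.5e-07), as did Calr, which encodes the chaperone calreticulin (0.34, adjusted p = 0.00018). Lyz2, lysozyme, stood at 0.05 there and at -0.39 in ABE against saline (adjusted p = 0.1). Srgn, the core protein that binds proteases in granules, fell in ABE against saline by 0.64 on the log2 scale (adjusted p = 0.0026). The median of the list was 0.18 in saline against wild-type and -0.51 in ABE against saline.

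Of 13 other genes listed with the specific granules, 3 were called higher in saline against wild-type, a share close to that of all genes, and 0 lower. In ABE against saline 0 were called higher and 12 lower. The list was not limited to granule proteins, as it held the transcription factor Cebpe and also Arg2. Chil3, a chitinase-like protein, averaged 42.1 scaled TPM in wild-type bone, 76.0 with saline and 51.9 with ABE, and it rose under saline (0.81, adjusted p = 0.0078) and fell under ABE against saline (-0.64, adjusted p = 0.037). Hp, haptoglobin, did the same (0.48, adjusted p = 0.027, and -0.82, adjusted p = 0.0013). Arg2 rose under saline (0.45, adjusted p = 0.0044). Cyba, a subunit of the NADPH oxidase, stood at -0.04 under saline against wild-type and fell under ABE against wild-type by 0.63 on the log2 scale (adjusted p = 0.00079). The medians were 0.03, -0.51 and -0.60 in saline against wild-type, ABE against wild-type and ABE against saline.

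Of 20 gelatinase granule and mature neutrophil genes, 9 were called higher and 0 lower in saline against wild-type, and 0 higher and 18 lower in ABE against saline. Mmp9, the gene of gelatinase B, which osteoclasts also express, averaged 52.0 scaled TPM in wild-type bone, 90.1 with saline and 59.5 with ABE. It rose under saline (0.74, adjusted p = 0.00039) and fell under ABE against saline (-0.62, adjusted p = 0.0038). Il1r2, a decoy receptor for interleukin 1, rose by 1.36 on the log2 scale under saline (adjusted p = 2.1e-09). Retnlg, a resistin-like gene of mature neutrophils, stood at 0.60 under saline (adjusted p = 0.062) and fell by 0.74 on the log2 scale under ABE against saline (adjusted p = 0.025). Lrg1 fell there by 0.62 on the log2 scale (adjusted p = 0.00095). The medians of the list were 0.37 and -0.53.

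Transcription factors of granulopoiesis moved in both directions. Of 10 tested, 2 were called higher and 3 lower in saline against wild-type, and 1 higher and 6 lower in ABE against saline. Cebpe, the C/EBP factor needed for specific granules, stood at 0.38 under saline (adjusted p = 0.14) and fell under ABE against saline by 0.63 on the log2 scale (adjusted p = 0.019). Cebpb, known for emergency granulopoiesis, rose by 1.14 under saline (adjusted p = 5.6e-08) and by 1.23 under ABE (adjusted p = 7.1e-09), both against wild-type. Irf8, which favours monocytes over granulocytes, fell by 1.11 on the log2 scale under saline against wild-type (adjusted p = 1.1e-08). Klf4 rose under ABE against saline by 0.51 (adjusted p = 0.0011). Several of these factors are also made by other cells of bone and marrow, which whole tissue does not separate.

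Of 15 growth, retention and recruitment signals of neutrophils, 8 passed the filter, and Csf3, Csf2, Il6 and 4 CXC chemokines were below it. Of the 8, 1 was called higher and 2 lower in saline against wild-type, and 0 higher and 7 lower in ABE against saline. Cxcl12, the ligand that keeps neutrophils in the marrow, stood at 0.35 under saline (adjusted p = 0.096) and fell under ABE against saline by 0.54 on the log2 scale (adjusted p = 0.014). Its receptor Cxcr4 fell there by 0.46 (adjusted p = 0.037), and Csf2rb, a shared chain of cytokine receptors, by 0.54 (adjusted p = 0.0011) on the log2 scale. Kitl, stem cell factor, rose under saline (0.56, adjusted p = 1.5e-05), and its receptor Kit fell by 0.52 on the log2 scale (adjusted p = 6.7e-05).

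Of 11 receptors and inhibitors of the granule proteins, 3 were called higher and 2 lower in saline against wild-type, and 0 higher and 4 lower in ABE against saline. Timp2, an inhibitor of gelatinases, rose under saline by 0.79 (adjusted p = 1.9e-05), and Ager, a receptor for S100 proteins, fell by 0.53 on the log2 scale (adjusted p = 1.3e-07). Lrp1, a clearance receptor that binds lactoferrin, fell by 0.36 under saline on the log2 scale (adjusted p = 0.013). Slpi, an elastase inhibitor made by neutrophils, fell under ABE against saline by 0.62 on the log2 scale (adjusted p = 0.0043).

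**Figure D5:**
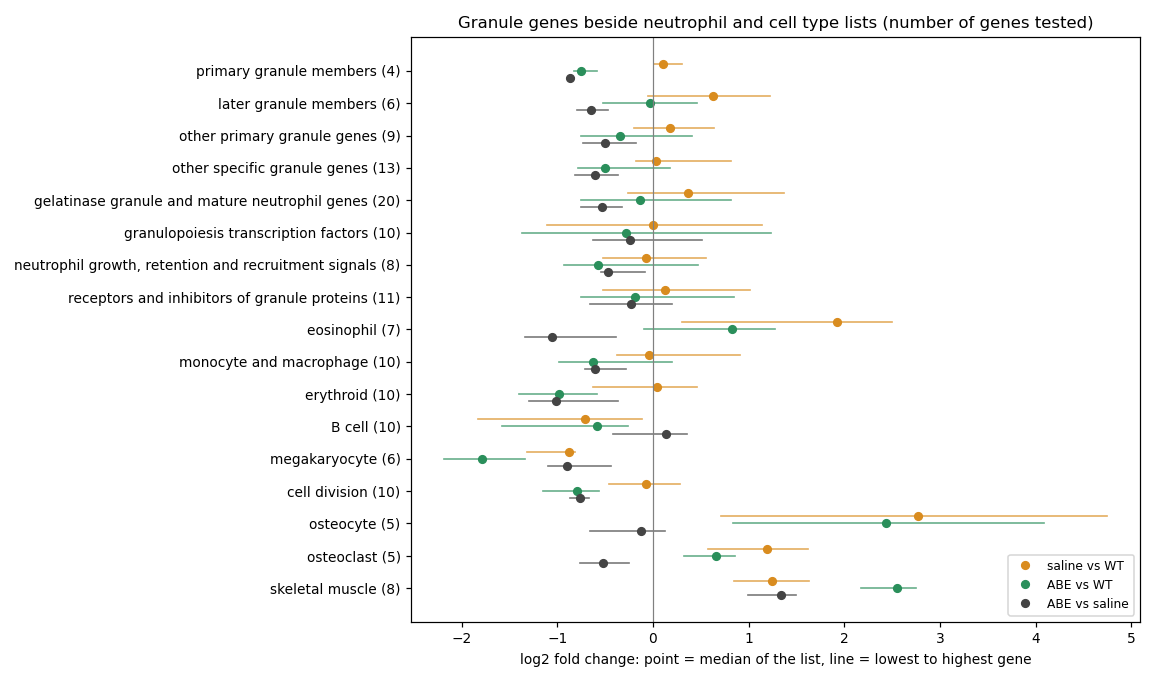
Log2 fold change of each list in the 3 comparisons, as the median of its genes (point) and the lowest to highest gene (line), with the number of genes tested beside each name. In ABE against saline the primary and later granule genes (medians -0.86 and -0.65) lie on the same side of 0 as the erythroid (-1.01), megakaryocyte (-0.89) and cell division (-0.77) lists, and skeletal muscle (1.34) lies on the other.

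Markers of other cells moved with the granule genes. In ABE against saline 9 of 10 erythroid genes were called lower and none higher. The summed erythroid level ran from 143 to 386 scaled TPM (median 285) in wild-type libraries, from 117 to 388 (median 306) with saline and from 26.9 to 287 (median 142) with ABE. All 6 megakaryocyte genes, all 10 cell division genes, 9 of 10 monocyte and macrophage genes and 6 of 7 eosinophil genes were also called lower. Of the 10 B cell genes 1 was called lower and 1 higher. Lower calls were also made for 2 of 3 basophil and mast cell genes, 3 of 3 T cell genes, 4 of 4 adipocyte genes, 3 of 5 osteoclast genes and 1 each of 5 osteocyte and 6 osteoblast genes, and higher calls for 3 of 4 cartilage genes and 1 osteoblast gene. Skeletal muscle genes went the other way, with 7 of 8 called higher. Their summed level ran from 193 to 2959 (median 964) in wild-type libraries, from 290.2 to 7419 (median 1956) with saline and from 1007 to 12304 (median 5983) with ABE. No gene of these lists was at 0 throughout a group, and the part of these cells in the granule results was not tested.

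In saline against wild-type, the osteocyte list rose in 5 of 5 genes, the eosinophil list in 7 of 7, the skeletal muscle list in 6 of 8 and the osteoclast list in 5 of 5, while the megakaryocyte list fell in 6 of 6, the cartilage list in 4 of 4 and the B cell list in 8 of 10. The summed eosinophil level ran from 13.6 to 71.0 scaled TPM (median 31.6) in wild-type libraries, from 46.5 to 364 (median 153) with saline and from 10.8 to 358 (median 75.3) with ABE. Eosinophil genes were thus higher along with S100a8, S100a9 and Lcn2, which other cells of bone can also express. Erythroid and monocyte genes were each called higher in at most 1 of 10 there, and their part was not tested.

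From mouse to mouse, after the means of group and sex were taken out, the later genes went with the cell division list (r = 0.843 over 36 libraries), the erythroid list (0.809) and the eosinophil list (0.741), and against the skeletal muscle list (-0.646). The primary genes went with the basophil and mast cell list (0.865) and the cell division list (0.717). With the mean levels of the B cell and erythroid lists as covariates, the fall of the granule genes under ABE against saline ran from -0.31 for Ctsg to 0.20 for Ltf and 0 of 10 were called. The same fit called Camp (0.75, adjusted p = 0.0071) and Ngp (0.60, adjusted p = 0.019) higher under ABE than in wild-type, along with Lcn2 (1.01), S100a8 (1.47) and S100a9 (1.11). With the skeletal muscle list as the covariate, added after the data had been seen, 0 of 10 were likewise called in ABE against saline, from -0.46 for Elane to -0.001 for Ltf. Calls over all tested genes also dropped in both fits, as counted in the last section, so the loss was not particular to granule genes. The erythroid and skeletal muscle lists themselves differed between these groups (medians -1.01 and 1.34). Neither fit can therefore separate the treatment from these lists. The genes of a list that served as a covariate were left out of that fit's results. In saline against wild-type both fits called 5 higher, S100a8, S100a9, Lcn2, Camp and Ngp.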

How the data were processed

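The deposited table held TPM for 56246 genes in 36 libraries, made by the authors from stranded poly(A) RNA-seq reads aligned with STAR to GRCm38 and counted per gene. Every library summed to 1000000, and 100% of the TPM values were whole reads once gene length (less 218 bp) was taken into account (tolerance 0.01), which gave the read totals. Each library was rescaled by the median ratio over 14219 tested genes above 0 in all libraries. Genes with a mean TPM of at least 0.5 were kept (16123). Comparisons used limma 3.58.1 in R 4.3.3 on log2(scaled TPM + 0.5), with 3 groups and sex in 1 fit, Benjamini-Hochberg adjustment and a threshold of 0.05. The published analysis used a count model, which TPM does not allow as the main test, so limma-voom on the recovered reads was an alternative. Changes within a sex, and their difference, came from a fit with 6 groups of 6. The p-values measure the spread between mice, estimated from all 3 groups together, so each comparison also draws on the spread of the group not compared. Steps were tested on simulated data.

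The genes and lists were chosen with earlier results of these data known. Genes named from each list were among the 2 with the highest mean scaled TPM and the gene with the lowest adjusted p in each of the 3 comparisons. Genes most alike were the 5 with the highest Pearson's r with the mean of a class. The skeletal muscle covariate, the sexes compared within a group, and ratios within a library were added after the data had been seen. Gene positions came from GENCODE vM21 (54487 of 56246 identifiers matched) and promoters from RefSeq. Figures were drawn with matplotlib 3.10.9.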

Additional observations from a re-analysis of the deposited data

Results flagged for a closer look

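Values of 96 sets of 6 libraries (a gene or ratio in 1 sex of 1 group) were searched for a library whose gap to the nearest other passed Dixon's critical share of the range for 6 values, and 7 had one. Chance alone gives about 1 in 20 sets. In ABE-treated females, replicate 2 had 85.3 scaled TPM for Mpo (nearest other 33.2) and 108.0 for Elane (nearest 45.0). In ABE-treated males, replicate 11 had 120.0 for Ltf (nearest 76.9). Both libraries are among the 3 that have WT in their names. ABE male replicate 12 had a ratio of later to primary genes of 26.7 (nearest 9.02) and a ratio of S100a8 to Mpo of 23.3 (nearest 9.21). In wild-type females, replicate 5 had a ratio of later to primary genes of 7.09 (nearest 4.92) and a ratio of Lcn2 to Ngp of 0.102 (nearest 0.0866).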

How the results depend on the processing

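For the 10 granule genes, 180 values came from alternatives that kept every library or left out several. Of these, 167 kept their state, called or not, in saline against wild-type, 149 in ABE against wild-type and 133 in ABE against saline. Direction was counted apart from this, and the sign changed in 16, 27 and 4 of the 180 values in the same order. The cause of the changes below was not tested. No paired analysis was possible because the labels give the groups no shared replicate numbers.

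Granule genes called in saline against wild-type (3) were 1 with the deposited TPM or in males alone, and 5 with quantile normalization, array weights, the B cell and erythroid covariates or the skeletal muscle covariate. In ABE against wild-type (4) they were 6 with the deposited TPM or in males alone and 0 in females alone. With the B cell and erythroid covariates the 4 genes lost their calls there, and S100a8, S100a9, Lcn2, Camp and Ngp were called higher. Camp and Ngp were called higher with the skeletal muscle covariate too. In ABE against saline (9) they were 5 with no filter or with the compared groups only, and 0 with either covariate fit or in either sex alone. The difference between sexes (0) gave 2 with array weights in saline against wild-type and 5 with the B cell and erythroid covariates in ABE against wild-type. Leaving out 1 library gave 3 to 4, 3 to 5 and 5 to 10 granule genes in saline against wild-type, ABE against wild-type and ABE against saline, and 0 to 3 for the sex difference of ABE against wild-type.

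Over all genes, saline against wild-type (8499) gave 4742 with the deposited TPM, 13149 with no filter, 2124 with a filter at 5 TPM and 3488 in females alone. ABE against wild-type (11368) gave 19185 with no filter, 2710 at 5 TPM, 7151 with the B cell and erythroid covariates and 5900 with the muscle covariate. ABE against saline (7817) gave 1828 at 5 TPM, 560 and 1836 with those covariates, 4892 in females alone and 3392 in males alone. The sex difference of saline against wild-type (77) gave 0 with the deposited TPM, genes over 500 bp, a pseudocount of 1 or without the 3 libraries with WT in their names, 171 with the median ratio over all genes, 338 with quantile normalization, 179 with a pseudocount of 0.1, 1 with no filter, 6 at 5 TPM, 3299 with array weights, 880 and 2 with the covariates, 777 with the compared groups only and 394 by limma-voom. That of ABE against wild-type (476) gave 867 with quantile normalization, 74 with genes over 500 bp, 36 at 5 TPM, 2678 with array weights, 2585 and 973 with the covariates and 21 with the compared groups only. That of ABE against saline (4) gave 2 with the deposited TPM, 9 with the median ratio over all genes or a pseudocount of 0.1, 0 with quantile normalization, genes over 500 bp or no filter, 2028 with array weights, 8 with a trended robust fit, 244 and 21 with the covariates, 1 with the compared groups only and 682 without the 3 libraries. Leaving out 1 library gave 7896 to 9006, 11131 to 11577 and 6786 to 8644 in the 3 comparisons, and 0 to 1072, 137 to 1224 and 0 to 403 for the sex differences.

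Log2 values reversed as follows. In saline against wild-type Plin1 was 0.18 with the B cell and erythroid covariates and Lrp1 0.031 in males alone. In ABE against wild-type the deposited TPM gave Calr -0.452, Cd63 -0.141, Klf4 -0.187 and Kitl -0.008. The B cell and erythroid covariates gave there Mpo 0.106, Prtn3 0.036, Ctsg 0.139, Ltf 0.266, Camp 0.751, Ngp 0.602, Hp 0.434, Cyba 0.057, Retnlg 0.939, Cebpe 0.603, Klf4 -0.061, Cxcr4 0.439, Slpi 0.159, Mki67 0.05, Ccnb2 0.186 and Ccnb1 0.021. The muscle covariate gave Mpo 0.064, Ctsg 0.022, Ltf 0.396, Camp 0.759, Ngp 0.679, Retnlg 0.855, Klf4 -0.078, Cxcr4 0.315 and Slpi 0.05. In ABE against saline Ebf1 was -0.078 with the deposited TPM, and the B cell and erythroid covariates gave Ngp 0.062, Lcn2 0.045, S100a8 0.044, Chil3 0.061 and Retnlg 0.067. In males, ABE against wild-type gave S100a8 0.875 with the B cell and erythroid covariates, and Mpo 0.03 and Ltf 0.245 with the muscle covariate.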
